A study of Mus musculus with 4 samples.

Results

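The genes described are 7 transcripts typical of type 1 innate lymphoid cells or of lymphocytes that stay in a tissue, namely Cxcr6, Itga1, Zfp683, Tnfsf10, Cd200r1, Itgae and Cd69. They were chosen by name, with earlier results of these data known, from 35275 gene identifiers in a table of read counts. All 7 were matched to a GENCODE symbol. They were followed in natural killer (NK) cells, which kill infected and transformed cells without prior priming, purified from mouse spleen and sorted as CD3-negative and NK1.1-positive for bulk RNA sequencing. The 4 groups, with 1 library each, were Irf4-/- mice given B16-F10 melanoma cells (a line from C57BL/6 mice) intravenously and sampled on day 20, Irf4-/- mice with no injection, wild type (WT) C57BL/6 mice injected in the same way, and WT mice with no injection. Irf4-/- denotes the label for mice without the transcription factor IRF4. The deleted part of the gene and the age and sex of the mice were not given in the sources used here. Neither was the number of animals behind a library. With 1 library per group, differences between groups cannot be told apart from those between animals or between library preparations. As no group had a replicate, values of a pair of libraries describe those libraries, and printed p-values come only from models over all 4. Fits on 3 libraries serve only as checks on those models.

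Type 1 innate lymphoid cells are close relatives of NK cells that live in tissues such as the liver, whereas most splenic NK cells circulate. Both kinds carry NK1.1, so an NK1.1 sort can hold both. Tissue-resident cells hold on to their site through integrins and through CD69, which removes the egress receptor S1PR1 from the cell surface, and the transcription factor Hobit takes part in this programme in mice. In bulk libraries, fewer cells of a type and less RNA per cell cannot be told apart.

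The libraries held between 15878159 and 21104881 counts. The targeted gene, Irf4, had 236 and 188 counts in the libraries labelled Irf4-/- injected and Irf4-/- control, against 57 and 93 in WT injected and WT control, so it was higher under the knockout label; counts over a whole gene cannot check a partial deletion, and every genotype direction below depends on the labels. The library from WT injected mice differed more from each of the others, at a root mean square of 0.359 to 0.399 on the log2 scale, than the other 3 stood from each other (0.234 to 0.325). NK cell markers were abundant in every library: the killing receptor gene Ncr1 had 1086 to 1464 CPM (counts relative to library size after TMM scaling) and Eomes, a transcription factor of NK cells that type 1 innate lymphoid cells largely lack, had 662.2 to 788.7 CPM. Of 5 melanocyte genes, Mlana, Tyr, Dct and Tyrp1 had 0 counts in all 4 libraries. The other, Pmel, had 66 and 49 counts in Irf4-/- injected and control, against 57 and 78 in WT injected and control.

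Start-site sequence is shown for genes that moved together with the Irf4-/- label. RefSeq promoter windows (GRCm38.p6, 250 bases before to 50 after the start) were matched for 3 of the 7 genes, Cxcr6, Itga1 and Tnfsf10, and those of the 2 that rose with the Irf4-/- label are given 5′ to 3′ along the gene, at chr9:123806227-123806526 on the plus strand for Cxcr6 and chr3:27316827-27317126 on the plus strand for Tnfsf10. Capitals mark matches to any of 4 motifs searched on both strands.
Cxcr6: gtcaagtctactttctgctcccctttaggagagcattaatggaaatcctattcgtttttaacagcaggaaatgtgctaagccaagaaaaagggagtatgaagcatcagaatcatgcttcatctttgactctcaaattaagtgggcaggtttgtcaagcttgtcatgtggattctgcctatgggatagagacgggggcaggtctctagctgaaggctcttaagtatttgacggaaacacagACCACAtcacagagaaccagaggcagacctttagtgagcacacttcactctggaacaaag
Tnfsf10: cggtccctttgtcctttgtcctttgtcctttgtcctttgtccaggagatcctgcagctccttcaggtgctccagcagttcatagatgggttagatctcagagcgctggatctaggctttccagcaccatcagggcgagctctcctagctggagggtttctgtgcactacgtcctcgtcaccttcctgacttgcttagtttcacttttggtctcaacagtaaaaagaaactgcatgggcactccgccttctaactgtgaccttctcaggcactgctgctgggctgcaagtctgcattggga
The motifs were the AP-1 motif TGANTCA, found in 7.81% of 32851 RefSeq promoter windows of the same length, the interferon-stimulated response element (GAAA, any 2 bases, GAAA) in 3.44%, the T-box motif AGGTGT in 13.7% and the RUNX motif TGTGGT in 16.8%. The Cxcr6 window held 1 match, the RUNX letters on the minus strand at bases -10 to -5 from the start, and the Tnfsf10 and Itga1 windows held 0 in these letters.

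Cxcr6, Cd200r1 and Tnfsf10 rose with the Irf4-/- label, by 4.2-fold, 2.54-fold and 1.81-fold. Itga1 and Zfp683 were 2.03-fold and 1.78-fold higher without passing the threshold, Cd69 was 1.37-fold higher and Itgae 1.06-fold. The test was edgeR's quasi-likelihood test over all 4 libraries, with genotype and injection as additive terms and Benjamini-Hochberg adjustment over 11998 genes at 0.05. Thus 3 of 7 genes rose and 0 fell, where 1.22% of all tested genes rose and 0.258% fell (1.48% in either direction). At an unadjusted p under 0.05 there were 6 of 7, against 10.4% of all tested genes. The median log2 change was 0.85 over the 7 genes and -0.0012 over all tested genes. In 6 of the 7, all but Itgae, both Irf4-/- libraries were above both WT libraries, as were those of 15.7% of all tested genes. Because the 7 genes were chosen with earlier results of these data known, these shares are a description and not a test of the group. The fit has 1 residual degree of freedom and its spread is the departure of these libraries from additivity, not that between animals. The 3 calls also passed with DESeq2, with limma-voom and without the WT injected library, but 0 of 7 passed without Irf4-/- injected, 1 (Cxcr6) without Irf4-/- control, 3 (Cxcr6, Tnfsf10 and Itga1, not Cd200r1) without WT control, and 0 when injection was left out as a term over all 4 libraries; the fits on 3 libraries also leave injection out.

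**Figure D1:**
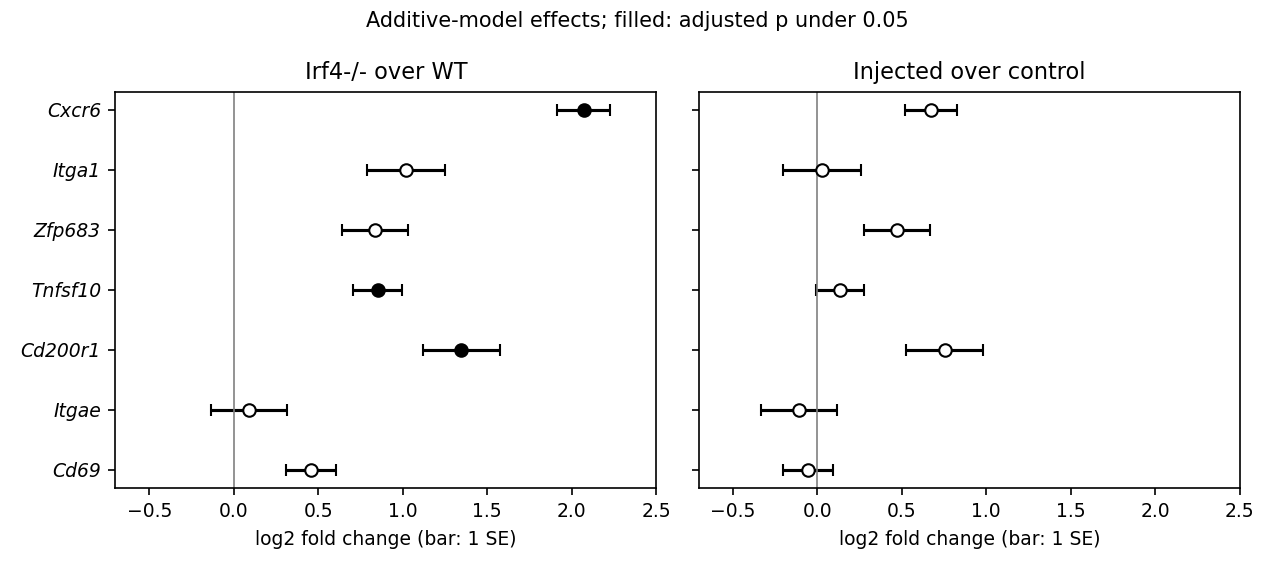
Log2 fold change of each gene in the additive model over 4 libraries, Irf4-/- over WT on the left and injected over control on the right, with bars of 1 standard error; filled points have an edgeR adjusted p under 0.05. Cxcr6, Tnfsf10 and Cd200r1 are filled on the left and no point is filled on the right.

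Among the receptors, Cxcr6 had the widest span. It encodes the receptor for the chemokine CXCL16 and marks type 1 innate lymphoid cells of the liver (ENSMUSG00000048521, chromosome 9, 123806475 to 123811760 in GRCm38). Its counts were 993 in Irf4-/- injected and 474 in Irf4-/- control, against 207 in WT injected and 172 in WT control, which are 53.3, 29.6, 11.1 and 8.18 CPM. The 4 libraries thus fell in the order Irf4-/- injected, Irf4-/- control, WT injected, WT control, with a 6.52-fold span. The log2 change with the Irf4-/- label was 2.07 (SE 0.156, edgeR adjusted p 7.89e-05). Cxcr6 lies within the bounds of Fyco1, a gene of the opposite strand with which it shares 0 exonic bases, and Fyco1 had 1074 and 913 counts in the Irf4-/- libraries, against 1061 and 1213 in WT. CXCL16 itself was scarce in these cells, with Cxcl16 at 0.27 and 1.44 CPM in Irf4-/- injected and control, against 1.62 and 0.86 CPM in WT injected and control. No 50-base stretch of Cxcr6 transcripts occurred in transcripts of another gene.

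Cd200r1 encodes the inhibitory receptor for CD200 (ENSMUSG00000022667, chromosome 16, 44765736 to 44794978). It had 261 and 122 counts in Irf4-/- injected and control, against 94 and 70 in WT injected and control, or 14.0, 7.62, 5.06 and 3.33 CPM in the same order. Its libraries followed the same order as those of Cxcr6. The log2 change with the Irf4-/- label was 1.35 (SE 0.228, edgeR adjusted p 0.0151). The neighbouring paralog Cd200r4, which encodes an activating member of the family, also rose, by 0.65 (SE 0.110, adjusted p 0.0146), with 63.6 and 64.2 CPM in Irf4-/- injected and control, against 37.4 and 44.6 CPM in WT injected and control. Cd200r2, another activating paralog, stood at 1.19 (SE 0.367, adjusted p 0.217) from at most 5.64 CPM. Reads within the longest run that the main Cd200r1 and Cd200r4 transcripts share cannot be assigned to either gene, and it is given here for that reason. It spans 88 coding bases in exon 3 of Cd200r1, at chr16:44789689-44789776 on the plus strand (GENCODE transcript, GRCm38), of a transcript of 1892 bases.
Cd200r1 and Cd200r4: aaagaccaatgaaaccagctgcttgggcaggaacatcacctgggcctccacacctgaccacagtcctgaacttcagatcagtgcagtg
Only 1.16% of the distinct 50-base stretches of Cd200r1 transcripts occurred in another gene. Cd200, the ligand gene, had 0.16 and 0.62 CPM in Irf4-/- injected and control, against 0.32 and 0.62 CPM in WT injected and control.

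Tnfsf10 is the ligand of the group and encodes TRAIL, a death ligand that type 1 innate lymphoid cells of the liver carry (ENSMUSG00000039304, chromosome 3, 27317028 to 27342427). It had 1352 and 853 counts in Irf4-/- injected and control, against 601 and 779 in WT injected and control, or 72.6, 53.3, 32.4 and 37.1 CPM. Here the WT injected library was the lowest, below WT control. The log2 change with the Irf4-/- label was 0.85 (SE 0.145, edgeR adjusted p 0.0152). The death receptor gene Tnfrsf10b stood at 1.40 and 1.998 CPM in Irf4-/- injected and control, against 1.24 and 2.76 CPM in WT injected and control, with a log2 change of -0.17 (SE 0.389). Of the decoy receptor genes of mice, Tnfrsf22 stood at -0.09 and Tnfrsf23 at -0.59, and neither passed (adjusted p 0.955 and 0.649 by edgeR).

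Of the 2 integrin alpha chains, neither passed the test. Itga1 encodes CD49a, a collagen-binding chain typical of type 1 innate lymphoid cells (ENSMUSG00000042284, chromosome 13, 114953096 to 115101964). It had 313 and 199 counts in Irf4-/- injected and control, against 114 and 175 in WT injected and control, or 16.8, 12.4, 6.14 and 8.33 CPM. Both Irf4-/- libraries were above both WT libraries, and WT injected was again the lowest. The log2 change was 1.02 (SE 0.231) with an edgeR adjusted p of 0.0692, which passed the threshold with upper-quartile scaling (0.0254), with library totals (0.0203), with no filter (6.09e-05) and with a 5 CPM filter (0.0396), and missed it with median-of-ratios scaling (0.0543), limma-voom (0.0769) and DESeq2 (0.156). Pelo, which lies within the bounds of Itga1 on the same strand and shares 0 exonic bases with it, had 304 and 225 counts in Irf4-/- injected and control, against 224 and 268 in WT injected and control. The overlapping transcript Gm49395, not analysed here, shares 685 of the 18599 annotated exonic bases of Itga1.

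Itgae, which encodes the CD103 chain that binds E-cadherin on epithelium (ENSMUSG00000005947, chromosome 11, 73090583 to 73147446), had 125 counts in each Irf4-/- library, against 127 in WT injected and 144 in WT control. These are 6.71 and 7.80 CPM in Irf4-/- injected and control, against 6.84 and 6.85 CPM in WT injected and control, and the groups overlap. Its log2 change was 0.09 (SE 0.226, edgeR adjusted p 0.957), and it was -0.02 when Irf4-/- control was left out. Itgb1 and Itgb7, the beta chains that pair with CD49a and CD103, stood at -0.0070 (SE 0.120) and 0.17 (SE 0.147) and neither passed.

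Zfp683 encodes Hobit, a transcription factor of resident lymphocytes in mice (ENSMUSG00000049410, chromosome 4, 134053838 to 134058996). It had 347 and 186 counts in Irf4-/- injected and control, against 168 and 161 in WT injected and control, or 18.6, 11.6, 9.04 and 7.66 CPM. Only Irf4-/- injected stood well above the rest. The log2 change was 0.84 (SE 0.195, edgeR adjusted p 0.0768), and it passed with upper-quartile scaling (0.0382), with library totals (0.0342) and with no filter (0.00174), and missed it with a 5 CPM filter (0.0524), median-of-ratios scaling (0.0651), limma-voom (0.0756) and DESeq2 (0.318). Prdm1, which encodes Blimp-1, the related factor that acts with Hobit in mice, stood at -0.17 (SE 0.161, adjusted p 0.825), with 86.4 and 103.6 CPM in Irf4-/- injected and control, against 130.0 and 88.2 CPM in WT injected and control.

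Cd69 encodes an early activation antigen that holds S1PR1 inside the cell (ENSMUSG00000030156, chromosome 6, 129267325 to 129275436). It had 571 and 593 counts in Irf4-/- injected and control, against 487 and 489 in WT injected and control, or 30.7, 37.0, 26.2 and 23.3 CPM. It was the gene among the 6 with separated groups whose highest library was Irf4-/- control. The log2 change was 0.46 (SE 0.148, edgeR adjusted p 0.257). S1pr1 stood at -0.40 (SE 0.0932, adjusted p 0.0752), with 82.1 and 76.0 CPM in Irf4-/- injected and control, against 107.8 and 102.1 CPM in WT injected and control.

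**Figure D2:**
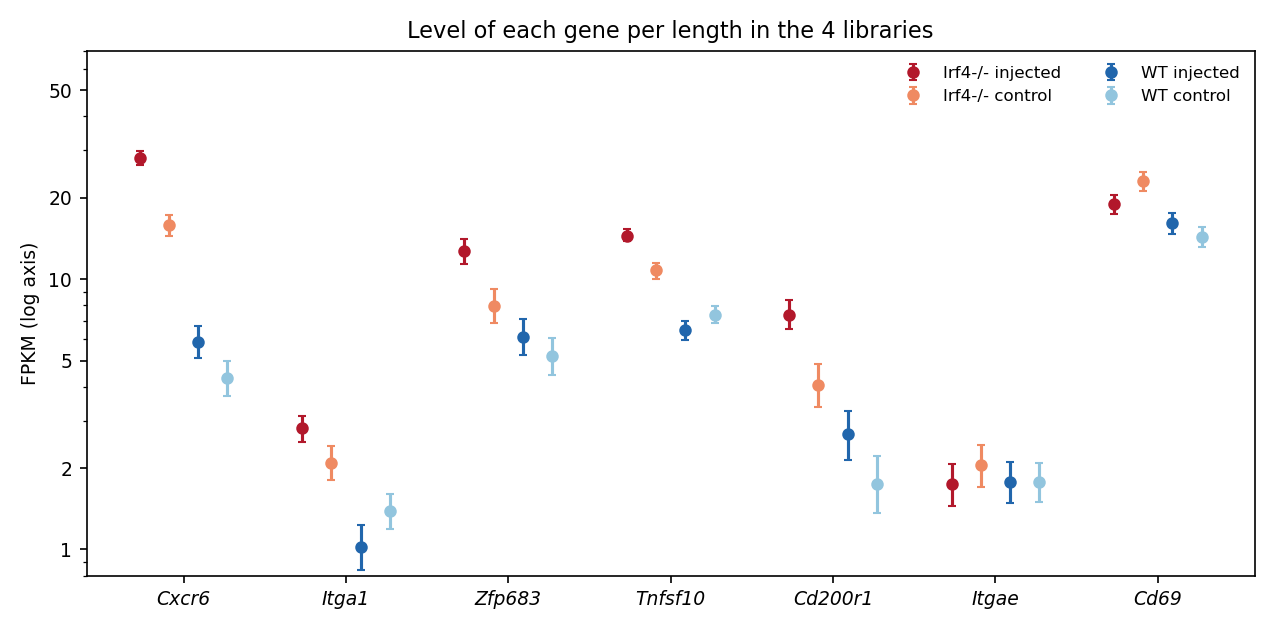
Level of each gene in FPKM (counts relative to gene length and library total, the deposited values, log axis) in the 4 libraries, with exact 95% Poisson intervals that cover counting error only. Cxcr6 is at 28.1 in Irf4-/- injected and 4.3 in WT control, while the 4 Itgae points lie between 1.74 and 2.05.

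Per length of transcript, the order of the genes differed between libraries. In Irf4-/- injected Cxcr6 had the highest level, 28.1 FPKM (26.4 to 29.9, exact Poisson 95%), followed by Cd69 with 18.9 FPKM (17.4 to 20.5). In Irf4-/- control Cd69 led with 23.0 FPKM (21.2 to 25) and Cxcr6 followed with 15.8 FPKM (14.4 to 17.3). In WT injected Cd69 led with 16.1 FPKM, and Tnfsf10 (6.46), Zfp683 (6.13) and Cxcr6 (5.87) had overlapping intervals. In WT control Cd69 led with 14.3 FPKM, ahead of Tnfsf10 with 7.39, Zfp683 with 5.19 (4.42 to 6.05) and Cxcr6 with 4.3 (3.69 to 5), of which the last 2 overlap. Itga1 and Itgae had the lowest levels in Irf4-/- injected (2.81 and 1.74 FPKM), Irf4-/- control (2.09 and 2.05, with overlapping intervals) and WT injected (1.02 and 1.77). In WT control Itga1 was lowest with 1.39 FPKM (1.19 to 1.61), and its interval overlapped those of Cd200r1 with 1.75 (1.37 to 2.21) and Itgae with 1.77 (1.5 to 2.09). Cd69, which is also an activation marker, was thus the leading transcript in 3 of the 4 libraries.

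Within the injected mice, 5 of 7 genes were at least 2-fold higher in the Irf4-/- library, by a rule that also asks for a mean of 5 CPM and a counting interval that excludes 1, and 0 were lower. Of 9685 genes measured in that pair 1.14% were higher and 0.661% lower by the rule. The smallest of the 5 was Zfp683, at a log2 ratio of 1.03 (exact 95% counting interval 0.77 to 1.32), and the nearest outside it was Cd69, at 0.23 (0.05 to 0.40). In mice with no injection 2 of 7, Cxcr6 and Cd200r1, were past 2-fold, where 0.694% of 9659 genes were higher, and this pair does not hold the WT injected library. In that pair Itga1 was at 0.57 (0.28 to 0.88), Zfp683 at 0.59 (0.29 to 0.91), Tnfsf10 at 0.52 (0.38 to 0.67) and Cd69 at 0.67 (0.50 to 0.85). Counting intervals lay above 0 for 6 of 7 genes in each pair, against 27.8% of genes in the injected pair and 15.1% in the control pair, and below 0 for 0 of 7, against 27.1% and 22.4% of genes. The median ratio of the 7 was 1.16 in the injected pair and 0.59 in the control pair, beside 0.0013 and -0.024 over all measured genes. These intervals allow for counting error alone, and PCR copies are not independent molecules.

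With injection, 0 of 7 genes passed edgeR's quasi-likelihood test, and 0 passed with DESeq2 and with limma-voom; 0.333% of 11998 genes rose with edgeR and 0.392% fell (0.725% in either direction). Both injected libraries were above both control libraries in 0 of 7, against 21.1% of all tested genes. That order could not occur for the 6 genes with both Irf4-/- libraries above both WT libraries. This count is therefore no measure of their injection response. At an unadjusted p under 0.05 there were 3 of 7, Cxcr6, Cd200r1 and Zfp683, against 14.2% of all tested genes. Cxcr6 was nearest to the threshold, with a log2 change of 0.67 (SE 0.153, edgeR adjusted p 0.0847), and it passed with upper-quartile scaling (0.0343), library totals (0.0349), no filter (0.00203) and a 5 CPM filter (0.0452), and missed it with limma-voom (0.0660), median-of-ratios scaling (0.0667) and DESeq2 (0.236). Cd200r1 stood at 0.75 (SE 0.227, edgeR adjusted p 0.168), Zfp683 at 0.47 (SE 0.194, 0.308) and the other 4 between -0.11 and 0.14. The median of the 7 was 0.14, beside 0.0031 over all tested genes.

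**Figure D3:**
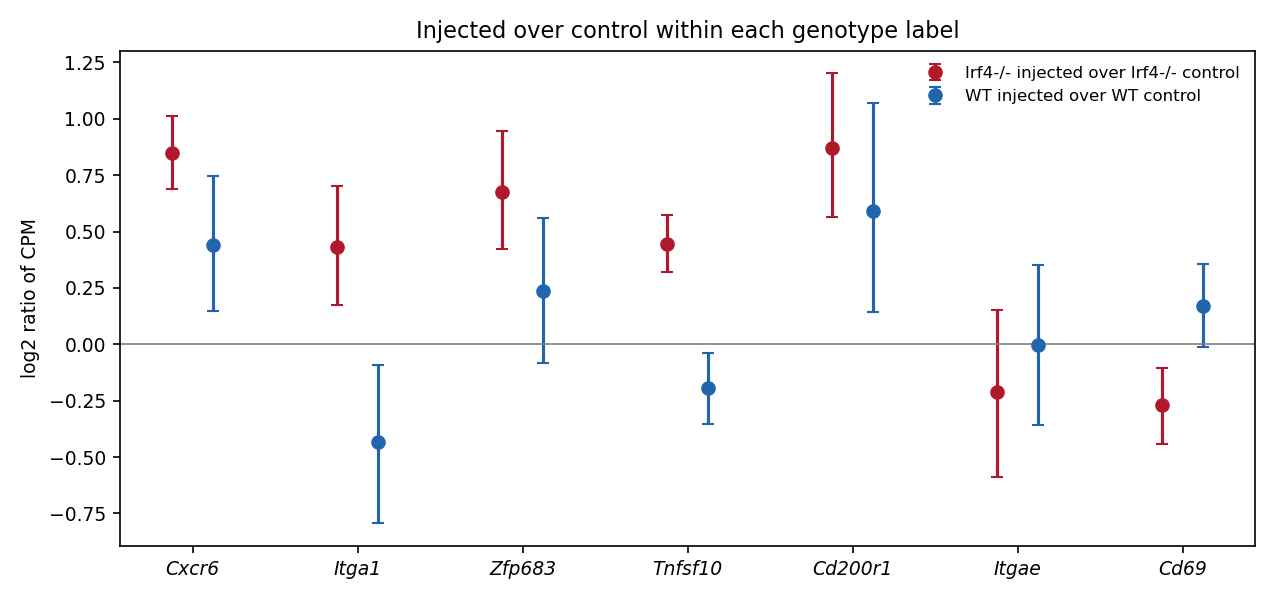
Log2 ratio of CPM, injected over control, within the libraries labelled Irf4-/- and within WT, with exact 95% counting intervals. Itga1 and Tnfsf10 lie above 0 in Irf4-/- and below 0 in WT.

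The injection ratio went different ways by label for some of the genes. No gene was past 2-fold in either pair, where 0.134% of 9697 genes were higher and 0.217% lower in Irf4-/-, and 1.06% of 9638 were higher and 0.83% lower in WT. In Irf4-/- the counting interval lay above 0 for 5 of 7 genes (22.1% of all) and below it for 1 (18.9%), and in WT it lay above 0 for 2 (28.7%) and below it for 2 (32.6%). In Irf4-/- the ratio was 0.85 (0.69 to 1.01) for Cxcr6, 0.87 (0.56 to 1.20) for Cd200r1 and 0.68 (0.42 to 0.95) for Zfp683, and in WT it was 0.44 (0.15 to 0.75), 0.59 (0.14 to 1.07) and 0.24 (-0.08 to 0.56) for the same genes. Itga1 was at 0.43 (0.18 to 0.70) in Irf4-/- and at -0.43 (-0.79 to -0.09) in WT. Tnfsf10 was at 0.45 (0.32 to 0.57) in Irf4-/- and at -0.20 (-0.35 to -0.04) in WT. Cd69 was at -0.27 (-0.44 to -0.10) in Irf4-/- and at 0.17 (-0.01 to 0.36) in WT. The difference of these ratios, Irf4-/- minus WT, had an approximate (normal) 95% counting interval above 0 for 4 of 7 genes and below 0 for 1, where 26% of 9674 genes with a mean of 5 CPM lay above 0 and 19.7% below. It was 0.87 (0.44 to 1.29) for Itga1, 0.64 (0.44 to 0.84) for Tnfsf10, 0.44 (0.04 to 0.84) for Zfp683, 0.41 (0.07 to 0.74) for Cxcr6 and -0.44 (-0.69 to -0.20) for Cd69. With 1 library per group this difference cannot be tested against a spread between animals, and the WT ratios rest on the library that stood apart.

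Of other genes of these programmes, few moved with the Irf4-/- label. Among 13 tested of 14 further type 1 innate lymphoid genes 1 rose, Il2ra (encoding CD25, a chain of the interleukin 2 receptor), by 1.98 (SE 0.189, edgeR adjusted p 0.000432), and 0 fell, with a list median of 0.10. The cytokine-induced granzyme gene Gzmc stood at -0.61 (SE 0.432), from levels of only 0.69 to 1.78 CPM. Tmem176a stood at 0.42, the aryl hydrocarbon receptor gene Ahr at 0.36 and Nt5e, which encodes the ectoenzyme CD73, at -0.28. With injection 2 of the 13 rose and 0 fell, where 0.333% of all tested genes rose and 0.392% fell. These were the interleukin 7 receptor gene Il7r, by 1.44 (SE 0.127, edgeR adjusted p 0.000559), and Kit, a receptor tyrosine kinase gene, by 0.88 (SE 0.0994, adjusted p 0.00304). Il7r had 144.2 CPM in Irf4-/- injected and 63.4 in Irf4-/- control, and 199.7 CPM in WT injected and 61.9 in WT control.

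Among 17 tested of 19 further residency genes, the Irf4-/- label went with 1 that rose and 1 that fell, and the list median was -0.16. Bhlhe40, a transcription factor needed by resident T cells in mice, rose by 0.48 (SE 0.0990, edgeR adjusted p 0.0417), and Nr4a1, a factor induced by receptor signalling, fell by 0.77 (SE 0.123, adjusted p 0.0104). Tnfaip3, an inhibitor of NF-kB signalling, stood at -0.65 (SE 0.220), and only its WT injected library stood apart. It had 115.8 and 118.3 CPM in Irf4-/- injected and control, against 279.6 and 121.3 CPM in WT injected and control. Ehd1 stood at 0.48, Nr4a2 at -0.46 and the chemokine gene Xcl1 at 0.46. Of 15 genes of circulation and egress 2 rose, the fractalkine receptor gene Cx3cr1 by 2.32 (SE 0.248) and the integrin gene Itgam by 0.67 (SE 0.127), and 0 fell. In that list Ccr7 stood at -0.61 (SE 0.380), Tcf7 at -0.43 and Rap1gap2 at 0.31, with a list median of 0.16. Ccr7 was also apart only in WT injected, with 2.15 and 2.31 CPM in Irf4-/- injected and control, against 4.95 and 2.24 CPM in WT injected and control. The percentage that rose among all tested genes was 1.22%, and the counts of these lists, 1 of 13, 1 of 17 and 2 of 15, rest on few genes. Of 11 tested genes among 15 partners and paralogs of the 7 genes only Cd200r4 rose and 0 fell.

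**Figure D4:**
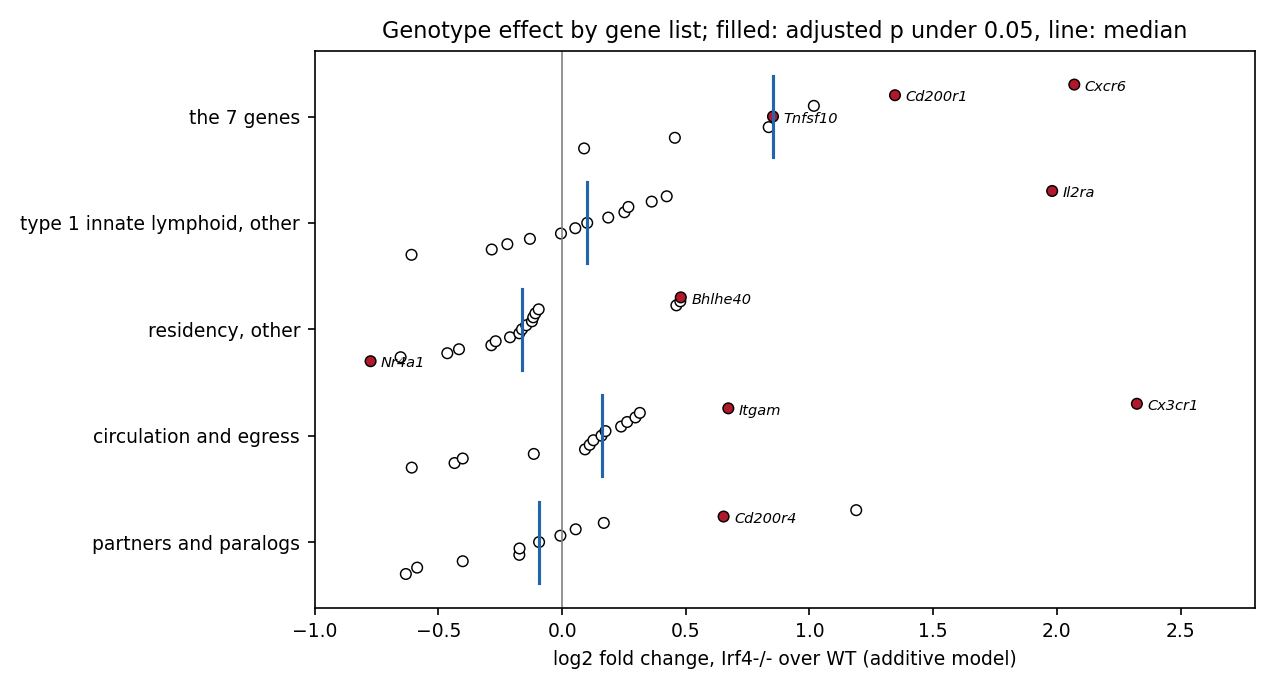
Log2 fold change, Irf4-/- over WT in the additive model, of each tested gene in 5 lists, with the list median as a vertical line; filled points have an edgeR adjusted p under 0.05. The median of the 7 genes is 0.85 and those of the other 4 lists lie between -0.16 and 0.16.

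Genes whose pattern over the 4 libraries was most like each of the 7 were found by the distance between centred log2 CPM among 9165 coding genes whose mean reached 5 CPM. Nearest to Cxcr6 were P2rx7, an ATP-gated channel gene with 32.5 and 20.2 CPM in Irf4-/- injected and control, against 6.84 and 4.23 CPM in WT injected and control (distance 0.273), the kinase gene Pim2 (0.357) and the phosphodiesterase gene Pde5a (0.408). Near to Cd200r1 were Cdc42ep1 (0.240) and Dscam (0.282). Itga1 was nearest to Tmprss6 (0.134), the cytokine gene Tnf (0.153) and Asb2 (0.177), and Tnfsf10 to Prag1 (0.146), Sfi1 (0.159) and Tmprss6 (0.183). Zfp683 was nearest to the phosphatase gene Ptpn5 (0.024), to Furin, a proprotein convertase gene (0.118), and to Ptpn3 (0.202). Nearest to Itgae was Ndufaf1 (0.013) and nearest to Cd69 was Plcb4 (0.045). With 4 libraries such distances describe likeness only.

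Markers of other cells were present at lower levels than those of NK cells, but some reached levels like those of the 7 genes. Summed CPM of 3 erythroid genes was 94.6 and 38.02 in Irf4-/- injected and control, against 15.7 and 31.7 in WT injected and control, so this list was higher in the Irf4-/- libraries as 6 of the 7 genes were. The same order held for 5 dendritic cell genes (14.4 and 16.2, against 9.85 and 12.2), where most of the sum was Zbtb46 (11.8 and 11.9, against 8.24 and 10.3). This order was also that of 5 genes of type 3 innate lymphoid cells (3.115 and 2.435, against 1.346 and 1.856, with Il22 and Il17a at 0 counts in all libraries) and of 8 NK cell genes (11130 and 11160, against 8837 and 10040). It did not hold for 5 B cell genes (45.8 and 62.2, against 26.1 and 60.6), 9 monocyte and macrophage genes (60.3 and 50.5, against 69.98 and 33.0) or 9 T cell genes (49.5 and 49.3, against 50.1 and 57.3). It held narrowly for 5 type 2 innate lymphoid genes (72.3 and 71.6, against 69.1 and 71.4, mostly Gata3, with Il13 at 0 counts in all libraries). Of 6 granulocyte genes (2.15 and 2.18, against 2.10 and 2.90) Ly6g was at 0 counts, and 4 platelet genes summed to 6.88 and 6.87, against 9.74 and 6.42. Of all these lists only Il1rl1, a type 2 innate lymphoid marker, rose with the Irf4-/- label by edgeR's quasi-likelihood test (log2 change 1.95, adjusted p 0.0479), and 0 genes fell. Of all tested genes 1.22% rose and 0.258% fell with the label. With injection the macrophage genes Vcam1 and C1qc rose and Lyz2 fell, where 0.333% of all tested genes rose and 0.392% fell. The part of other cells in the results was not tested.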

How the data were processed

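For 4 libraries the authors deposited raw counts per gene and, beside them, FPKM values. TopHat, edgeR and mm10 are named, without versions, per the submitters' processing notes; the counting tool, annotation and strand setting were not given in the sources used here, so reads of overlapping or antisense genes cannot be told apart. All 72455 deposited FPKM values with a count matched the count over the library total for a gene length in whole bases, within 0.01 bp. Symbols came from GENCODE M21 (34490 of 35275 identifiers).

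Printed CPM, ratios and tests used library totals scaled by TMM. Pair ratios used a prior count of 2 and exact (Clopper-Pearson) 95% counting intervals. Tests used edgeR 4.0.16 on R 4.3.3 for genes that reached 1 CPM in 2 or more libraries (common dispersion 0.00996, prior degrees of freedom 9.62); SE is the log2 change over the square root of F. All 7 genes passed the filter. A count of 0 allows up to 3 counts, or 0.142 to 0.189 CPM of the unscaled totals. Alternatives included DESeq2 1.42.0 and limma-voom 3.58.1. Both steps were also run on simulated counts with the same dispersion for every gene, no injection effect and no library that stood apart. These settings differ from the data, so the simulation checks the code and not the calls.

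The genes, lists and tests were chosen with earlier results of these data known. Always named were the 7 genes and Irf4; of each list, genes past the test and up to 4 more with the largest genotype effect; and up to 3 of the nearest genes in pattern per gene (1 each for Itgae and Cd69; 1 near Cd200r1 is not reported here). List members quoted beside a gene, such as Itgb1, and markers were named for their role. Shared 50-base stretches were sought in GENCODE transcripts.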

Additional observations from a re-analysis of the deposited data

Results flagged for a closer look

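Itga1 and Tnfsf10 were picked out because their injection ratios went opposite ways under the 2 genotype labels, each with a counting interval that excludes 0. Itga1 had a log2 ratio of 0.43 in Irf4-/- and -0.43 in WT, and Tnfsf10 had 0.45 in Irf4-/- and -0.20 in WT. This difference was not tested, since each ratio rests on 1 library a side. The WT injected library, which stood apart from the other 3, enters both WT ratios, and its part in them was not tested.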

How the results depend on the processing

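No paired analysis was possible because each group has 1 library. Of the alternative values of the effects of the 7 genes, 147 kept their direction and side of the threshold, 16 newly passed, 9 no longer passed and 10 changed sign. All 252 alternative pair ratios stayed within their counting intervals. Settings of minimum CPM and of fold do not enter these ratios. The median shift from another scaling was at most 0.0241 on the log2 scale, so the pair ratios were little tested by these settings. With the Irf4-/- label 3 of 7 genes passed; 5 passed with upper-quartile scaling, library totals, no filter or an adjusted p under 0.1, and 0 with injection left out as a term. Over all genes the 177 calls became 482 with no filter and 5 with injection left out. With 1 library and injection left out, calls ranged from 0 to 3 among the 7 genes and from 0 to 1004 over all genes (9 without Irf4-/- control). With injection 0 of 7 passed; 1 passed with upper-quartile scaling, library totals, a 5 CPM filter or an adjusted p under 0.1, and 2 with no filter. Over all genes the 87 injection calls became 213, 267, 161, 235 and 604 in that order, 0 with genotype left out, and 0 to 698 with 1 library left out as well (14 without WT injected). At a minimum of 20 CPM, 2 genes in the injected pair and 0 in the control pair were past 2-fold; at a fold of 1.5, 4 were in the control pair and 3 with injection in Irf4-/-. Reversals all came from fits on 3 libraries with the other term left out: for genotype Itgae (-0.023 without Irf4-/- control); for injection, without Irf4-/- injected, Cxcr6 (-0.745), Itga1 (-0.749), Zfp683 (-0.083), Tnfsf10 (-0.476) and Cd200r1 (-0.097); without WT control, Itga1 (-0.125) and Tnfsf10 (-0.031); and Cd69 without Irf4-/- control (0.302) or WT injected (0.029). In the injection fits the groups left differ in genotype, and in the genotype fit of Itgae they differ in injection. Otherwise the cause of the reversals was not tested. Cd200r1, Itgae and Itga1 rest on as few as 70, 125 and 114 counts in a library.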
